A study of Mus musculus with 26 samples.

Results

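A set of 8 genes, Pgf, Mrap, Mug1, Aldh1l1, Sbsn, Bnipl, Fap and Acad8, was followed in the lacrimal gland, which makes the watery part of tears. They were picked because they stood near background or low at 4 weeks of age and high at 8 weeks, so the values at those ages are a description and were not tested. All 13 probe sets annotated to 1 of these genes alone were taken, out of 45101 probe sets on the array and 34958 with a single gene symbol, which name 18194 genes. The choice had no numerical threshold. One further probe set, annotated to Mug1 together with related genes, was left out.

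The glands came from male C57BL/6.NOD-Aec1Aec2 mice, in which a pair of NOD-derived regions, Aec1 and Aec2, sits in the C57BL/6 background and autoimmune disease like Sjögren's syndrome develops in the tear and salivary glands. All 26 arrays share this genotype and no treatment is given in the labels. The 4-week group, which the labels place before disease, has 4 arrays. The groups of 8 and 12 weeks have 6 arrays each, and those of 16 and 20 weeks have 5 each. No control strain was analysed here, so age and disease cannot be told apart. The arrays are labelled biological replicates, and nothing read here says whether each stands for 1 animal or a pool, so the p-values reflect only how far these arrays spread. In whole glands, a change in the number of cells of a type and a change in RNA per cell cannot be told apart.

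The 8 genes have different known roles. Pgf (placental growth factor) is a secreted ligand of the VEGF family that binds the receptor Flt1, and Mrap (melanocortin receptor accessory protein) carries the corticotropin receptor Mc2r to the cell surface in the adrenal gland. Mug1 (murinoglobulin) is a protease inhibitor of the alpha-2-macroglobulin family known from rodent plasma, and Fap (fibroblast activation protein) is a surface peptidase that cuts after proline and is known from activated fibroblasts. Sbsn (suprabasin) is a secreted protein of the upper epidermis, and Bnipl carries a BCH domain, a protein interaction fold. Aldh1l1 is a cytosolic enzyme that oxidises 10-formyltetrahydrofolate, and Acad8 is the mitochondrial isobutyryl-CoA dehydrogenase of valine breakdown.

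The sequences before the start sites of some of these genes are given first, so that they can be set beside the values that follow. The set of RefSeq promoters used here held 5 of the 8 genes, with 6 start sites, and lacked Mrap, Bnipl and Fap. The 250 bases before the start are printed 5′ to 3′ on the gene's strand, build GRCm38.p6, for Mug1 (chr6:121838291-121838540, plus strand), Sbsn (chr7:30751221-30751470, plus strand) and the upstream start of Pgf (chr12:85177314-85177563, minus strand). Capitals mark matches to 5 motifs searched on both strands, TATAAA (the TATA box), CCAAT (bound by the factor NF-Y), GGGCGG (the GC box), TGANTCA (AP-1 site) and AGAACA (half-site of steroid receptors).
Mug1: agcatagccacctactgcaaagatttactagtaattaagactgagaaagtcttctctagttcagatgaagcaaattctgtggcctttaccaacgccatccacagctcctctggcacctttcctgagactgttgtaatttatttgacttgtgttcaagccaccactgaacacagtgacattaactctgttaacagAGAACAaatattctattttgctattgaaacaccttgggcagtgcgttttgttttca
Sbsn: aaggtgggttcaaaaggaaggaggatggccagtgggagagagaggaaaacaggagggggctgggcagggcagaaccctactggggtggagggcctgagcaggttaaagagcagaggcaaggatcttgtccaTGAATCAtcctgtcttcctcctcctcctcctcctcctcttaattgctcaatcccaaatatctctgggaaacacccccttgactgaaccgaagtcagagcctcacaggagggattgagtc
Pgf: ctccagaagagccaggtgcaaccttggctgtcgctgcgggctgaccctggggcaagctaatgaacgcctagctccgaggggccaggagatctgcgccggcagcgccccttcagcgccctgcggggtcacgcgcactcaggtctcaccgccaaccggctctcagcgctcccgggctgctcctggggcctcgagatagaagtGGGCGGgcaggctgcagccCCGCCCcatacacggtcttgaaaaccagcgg

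The Mug1 window held 1 AGAACA and none of the other 4 motifs, and its GC content was 40%. The Sbsn window held 1 AP-1 match at a GC content of 54.4%, and the Pgf window held 2 GC box matches at 68.4%. Aldh1l1 had 2 CCAAT matches and 1 GC box match, Acad8 had 1 CCAAT and 3 GC box matches, and the other Pgf start had none. No TATAAA match lay in any of the 6 windows. Of 32851 RefSeq promoters of the same length, 12.4% held TATAAA, 33.8% CCAAT, 32.7% GGGCGG, 6.75% TGANTCA and 16.1% AGAACA, so each is also found in many other promoters. No motif was shared by all 6 windows. A match is a description of letters.

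Array quality touches several results below. 16 weeks replicate 4 and 20 weeks replicate 1 stood apart, with a narrower spread of log2 values (SD 1.68 and 1.36) than the remaining 24 arrays (1.78 to 2.27). They also correlated less with their own age, at a median of 0.921 and 0.869, where the rest lay at 0.956 to 0.986. Of the 8 genes, 20 weeks replicate 1 was the lowest array of its age for 7, and 16 weeks replicate 4 for 4. The excess of 3′ over 5′ actin control signal, a sign of degraded RNA, averaged 2.90, 2.63, 3.69, 4.56 and 3.89 from 4 to 20 weeks. Of 12 lacrimal secretory genes listed, all but the muscarinic receptor Chrm3 lay above background at every age, with a mean log2 level of 9.79 to 10.94 by age. The mean of 7 salivary gland markers varied widely between arrays of the same age. It ran from 5.24 to 10.61 at 4 weeks, 4.74 to 10.43 at 8, 8.19 to 11.30 at 12, 5.38 to 9.97 at 16 and 5.44 to 10.20 at 20 weeks. The cause was not tested. The calls made between 12, 16 and 20 weeks are given with and without the pair of arrays that stood apart.

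Levels are deposited log2 values, and a mean under 4.04, within 1 log2 unit of the usual array median, is called near background, so that a difference from such a level is a lower bound. Where 1 value per gene is given, it comes from the probe set whose mean over the 26 arrays was highest. For all 8 genes the 8-week arrays lay above all of the 4-week arrays, as 2.81% of the 20110 probe sets tested did. The genes were chosen on this step, so nothing is read from that count. The plot of values by array shows the courses separating afterwards.

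**Figure D1:**
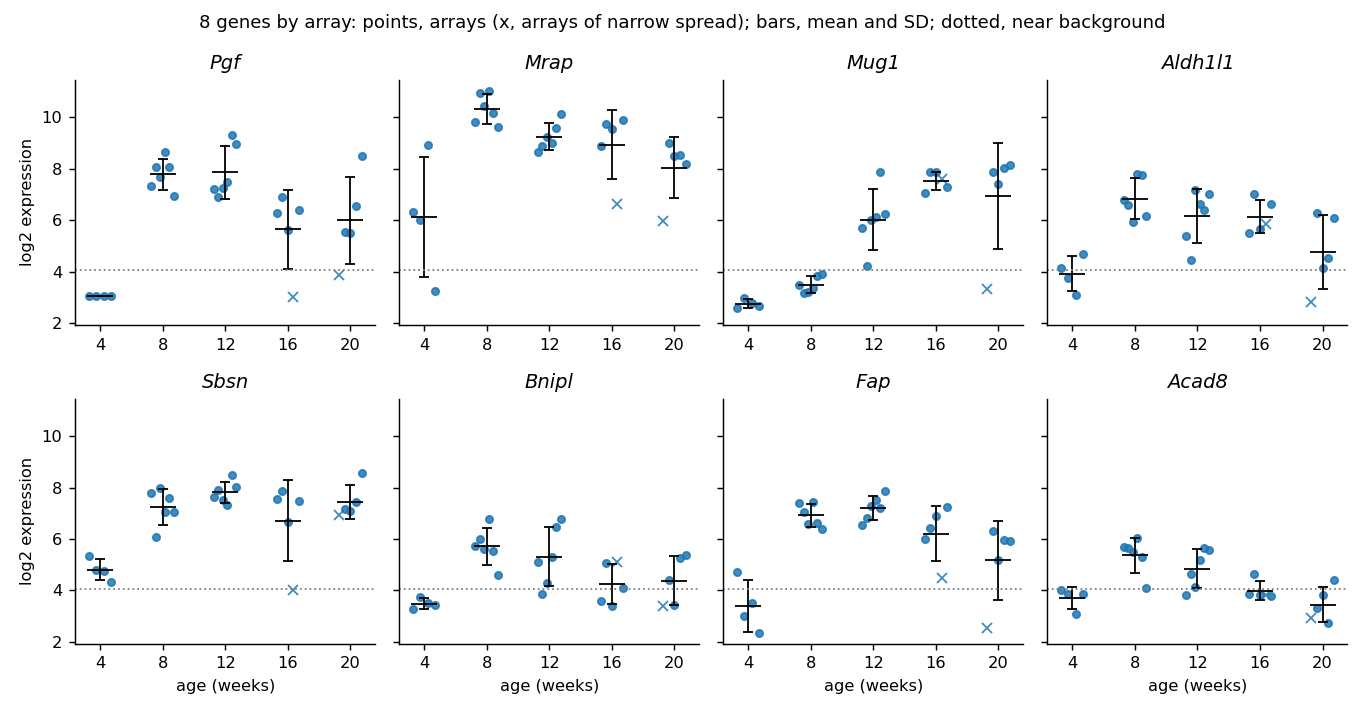
Log2 expression (vertical axis) of each gene's representative probe set on each of 26 arrays, by age in weeks. Points are arrays, crosses are 16 weeks replicate 4 and 20 weeks replicate 1, bars are the mean and SD, and the dotted line is the near-background level of 4.04. Mug1 alone stays under the line at 8 weeks, and is then at 6.02, 7.53 and 6.95 on average at 12, 16 and 20 weeks.

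Pgf, the VEGF family ligand, stood at 3.04, 3.05, 3.05 and 3.05 on the 4-week arrays (probe set 1418471_at). At 8 weeks its 6 arrays ran from 6.95 to 8.65 with a median of 7.87, and at 12 weeks from 6.90 to 9.30 with a median of 7.38. At 16 weeks the arrays read 6.27, 6.89, 5.63, 3.02 and 6.40, and at 20 weeks 3.85, 5.55, 5.52, 6.54 and 8.49. The 4-week level was thus the same near-background value on every array, and the only later arrays near it were the pair that stood apart. The 8-week mean was 4.74 ± 0.72 (SE) above the 4-week mean, at least 26.7-fold on the linear scale. Age means ran from 3.05 at 4 weeks through 5.64 at 16, 5.99 at 20 and 7.79 at 8 weeks to 7.86 at 12 weeks, and neither the 16 and 20 week means nor the 8 and 12 week means differed by more than their SD.

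Fap, the surface peptidase, read 4.72, 3.01, 3.50 and 2.35 at 4 weeks (1417552_at). It ran from 6.40 to 7.43 at 8 weeks (median 6.84) and from 6.55 to 7.85 at 12 weeks (median 7.25). It read 5.98, 6.43, 6.88, 4.47 and 7.26 at 16 weeks, and 2.53, 6.31, 5.18, 5.96 and 5.90 at 20 weeks. All 5 arrays at 20 weeks lay below all 6 at 12 weeks. The 8-week mean was 3.52 ± 0.60 (SE) above the 4-week mean, a lower bound.

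Mug1, the protease inhibitor, did not follow its label. It read 2.58, 2.96, 2.79 and 2.65 at 4 weeks and 3.18 to 3.92 at 8 weeks (median 3.41), all near background (1417835_at). At 12 weeks it ran from 4.21 to 7.89 with a median of 6.06, above every 8-week array, as 0.264% of all probe sets were. It read 7.05, 7.86, 7.88, 7.58 and 7.28 at 16 weeks, and 3.31, 7.88, 7.40, 8.02 and 8.13 at 20 weeks. The difference was 0.75 ± 0.68 (SE) for 8 against 4 weeks and 2.53 ± 0.61 for 12 against 8 weeks. A first departure from background at 12 weeks, with every 12-week array above every earlier array, was found in 3 of 20110 probe sets (0.0149%), Mug1 among them. This pattern is the course of Mug1 itself, so nothing is read from its rarity for that gene. The other two, chosen here after their values were seen, were Elk3 (4.76 at 12 weeks, against 3.93 at 8 weeks) and AI467606 (4.35 against 3.17), with smaller steps than Mug1. The corresponding pattern at 8 weeks was met by 133 probe sets of 126 genes (0.661%), 6 of them among the 13 studied here. That pattern is close to the rule by which the genes were chosen, so nothing is read from the 6.

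Mrap, the melanocortin receptor accessory protein, was not near background at 4 weeks as a group, but its 4 arrays were far apart at 6.31, 6.01, 8.93 and 3.25 (1451371_at). They gave a mean of 6.12 ± 2.32 (SD), the widest spread of any gene of the set at that age. At 8 weeks the arrays ran from 9.64 to 11.03 (median 10.30) and at 12 weeks from 8.67 to 10.13 (median 9.11). They read 8.88, 9.76, 9.56, 6.64 and 9.88 at 16 weeks, and 5.97, 9.01, 8.49, 8.55 and 8.19 at 20 weeks. The 8 minus 4 week difference was 4.22 ± 0.77 (SE), and it was 5.15 without 4 weeks replicate 3 and 3.26 without 4 weeks replicate 4.

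Sbsn, the epidermal secreted protein, read 5.35, 4.78, 4.74 and 4.33 at 4 weeks (1459897_a_at). It ran from 6.06 to 8.00 at 8 weeks (median 7.33) and from 7.34 to 8.48 at 12 weeks (median 7.77). It read 7.54, 7.88, 6.67, 4.01 and 7.46 at 16 weeks, and 6.94, 7.16, 7.08, 7.43 and 8.55 at 20 weeks. From 8 weeks on, 16 weeks replicate 4 was the only array within the 4-week range of this probe set or below it. The 8 minus 4 week difference was 2.46 ± 0.53 (SE), and 1.72 ± 0.49 on a second probe set, 1439630_x_at, whose 4-week mean of 3.35 is near background. On 16 weeks replicate 4 the second probe set read 6.29, the highest of its age, so the low value there is not shared by both probe sets.

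Bnipl, the BCH domain protein, read 3.26, 3.75, 3.51 and 3.41 at 4 weeks (1420683_at). It ran from 4.61 to 6.78 at 8 weeks (median 5.67) and from 3.86 to 6.76 at 12 weeks (median 5.20). It read 3.60, 5.05, 3.41, 5.08 and 4.11 at 16 weeks, and 3.37, 4.39, 3.44, 5.25 and 5.38 at 20 weeks. Some arrays at each age from 12 weeks were near background again. The 8 minus 4 week difference was 2.23 ± 0.53 (SE), a lower bound.

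Aldh1l1, the folate enzyme, read 4.13, 3.74, 3.07 and 4.69 at 4 weeks (1424400_a_at). It ran from 5.93 to 7.80 at 8 weeks (median 6.70) and from 4.47 to 7.16 at 12 weeks (median 6.50). It read 5.51, 7.02, 5.67, 5.86 and 6.61 at 16 weeks, and 2.81, 6.30, 4.13, 4.52 and 6.09 at 20 weeks. The 20-week arrays overlapped those of every other age. The 8 minus 4 week difference was 2.93 ± 0.61 (SE), a lower bound.

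Acad8, the valine enzyme, read 4.00, 3.87, 3.08 and 3.84 at 4 weeks (1419262_at). It ran from 4.08 to 6.04 at 8 weeks (median 5.56) and from 3.83 to 5.65 at 12 weeks (median 4.91). It read 3.86, 4.65, 3.81, 3.82 and 3.78 at 16 weeks, and 2.91, 3.31, 3.80, 2.74 and 4.40 at 20 weeks. By the representative probe sets, it was the only gene of the set whose 20-week mean, 3.43 ± 0.68 (SD, n = 5), lay below its 4-week mean, 3.70 ± 0.42 (n = 4). The 20 minus 4 week difference was -0.27 ± 0.41 (SE) and both means are near background, so no fall below the 4-week level is read from it. The 8 minus 4 week difference was 1.67 ± 0.39 (SE), a lower bound.

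Not every probe set of these genes moved. A second probe set of Mrap (1451966_at) lay at 3.16 to 3.60 on all 26 arrays, one of Aldh1l1 (1424401_at) at 2.18 to 2.58 and one of Sbsn (1459898_at) at 2.39 to 2.87. All of these lay near background throughout. The other Acad8 probe set (1419261_at) lay at 3.53 to 4.68, and its 8 minus 4 week difference was 0.092 ± 0.13 (SE), against 1.67 ± 0.39 for the representative. Its 20-week mean lay 0.32 above its 4-week mean, and 0.12 ± 0.12 (SE) above its 12-week mean (adjusted p = 0.463 in limma). The courses described for these 4 genes therefore rest on 1 probe set each, or on 2 for Sbsn, and those for Pgf, Mug1, Bnipl and Fap on the only probe set each has. The probe sequences and the transcripts they match were not analysed here.

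**Figure D2:**
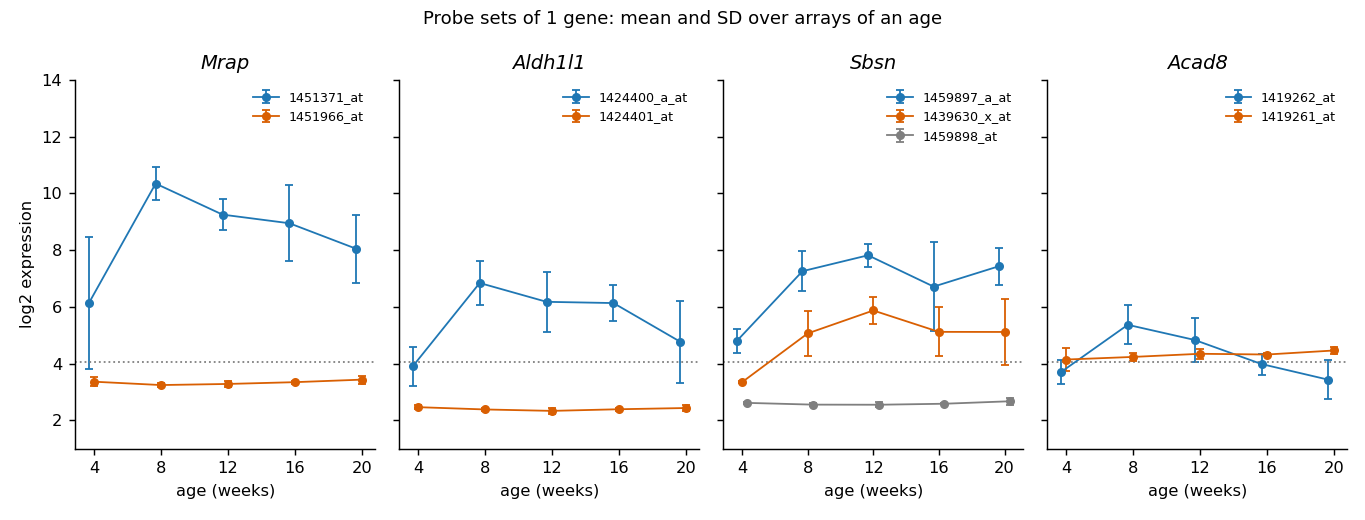
Log2 expression (vertical axis) by age in weeks for every probe set of Mrap, Aldh1l1, Sbsn and Acad8. Points and bars are the mean and SD over the arrays of an age and the dotted line is the near-background level. One probe set of each gene is flat, at 2.18 to 4.68 over all arrays.

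The stated rule did not use the ages 12, 16 and 20 weeks. They were tested with limma over 20110 probe sets, 11 of the 13 among them. Mug1 was near background at 8 weeks and does not meet that rule, so its later values may have entered its choice. Between 20 and 12 weeks 3 of the 11 fell and none rose, against 14.8% lower and 9.33% higher over all probe sets tested. Fap fell by 2.03 ± 0.56 (SE), 4.08-fold (adjusted p = 0.019), and lower on all 5 arrays at 20 weeks, as 4.27% of all probe sets were. Acad8 fell by 1.40 ± 0.37 (adjusted p = 0.0146), with 4 of 5 arrays below the lowest at 12 weeks, a lower bound as its 20-week mean is near background. Pgf fell by 1.87 ± 0.67 (adjusted p = 0.048), with 4 of 5 arrays below the lowest at 12 weeks. The other representatives did not pass, and 4 of these 5 were lower: Aldh1l1 by 1.41 ± 0.57 (adjusted p = 0.0669), Mrap by 1.20 ± 0.72 (0.192), Bnipl by 0.93 ± 0.50 (0.147) and Sbsn by 0.38 ± 0.50 (0.556). Mug1 was 0.93 ± 0.64 higher (0.253).

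The pair of apart arrays decides part of this. Without both, 9.03% of probe sets were lower and 2.66% higher. Fap then fell by 1.37 ± 0.37 (adjusted p = 0.0211) and Acad8 by 1.27 ± 0.40 (0.0417), while Pgf was 1.34 ± 0.52 lower without passing (0.095). Mug1 then rose by 1.84 ± 0.41 (adjusted p = 0.0078 in limma), with all 4 remaining 20-week arrays at 7.40 or more and only 1 of the 6 arrays at 12 weeks that high. Leaving out 20 weeks replicate 1 alone gave an adjusted p of 0.0581 for Fap and 0.00856 for Mug1. With the spread of each array as a covariate Pgf, Fap and Acad8 lost their calls, at differences of -0.48, -0.83 and -0.80 (adjusted p = 0.649, 0.293 and 0.218), and Mug1 rose by 2.11 (0.0323).

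Between 16 and 12 weeks none of the 11 probe sets passed, against 2% lower and 0.293% higher over all, and 5 of the 8 representatives had an unadjusted p under 0.05, as 20.4% of all probe sets did. Pgf was 2.21 ± 0.67 (SE) lower, with all 5 arrays at 16 weeks below all 6 at 12 weeks (3.22% of all probe sets), at an adjusted p of 0.0756 in limma. It was 1.56 ± 0.52 lower without the pair of apart arrays (adjusted p = 0.0989) and 1.34 ± 0.48 lower with array spread as a covariate (0.118). Of 26 refits without 1 array it passed in 2, one of them without 20 weeks replicate 1 (0.0384), which enters through the shared spread. Mug1 was 1.51 ± 0.64 higher (adjusted p = 0.19), and it rose without the pair of apart arrays (1.50 ± 0.41, 0.0486) and without 20 weeks replicate 1 alone (0.026). Between 20 and 16 weeks none passed, against 0.00497% in each direction, and 1 representative, Aldh1l1, had an unadjusted p under 0.05, as 7.96% of all probe sets did, with a difference of -1.37 ± 0.60 (adjusted p = 0.614). In the F test over the 3 ages Acad8 passed (adjusted p = 0.0395), against 9.66% of all probe sets, and Fap and Pgf did not (0.0536 and 0.0565). Acad8 did not pass it without the pair of apart arrays (0.0889), where Mug1 did (0.0117). These comparisons share arrays and are not independent of one another.

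**Figure D3:**
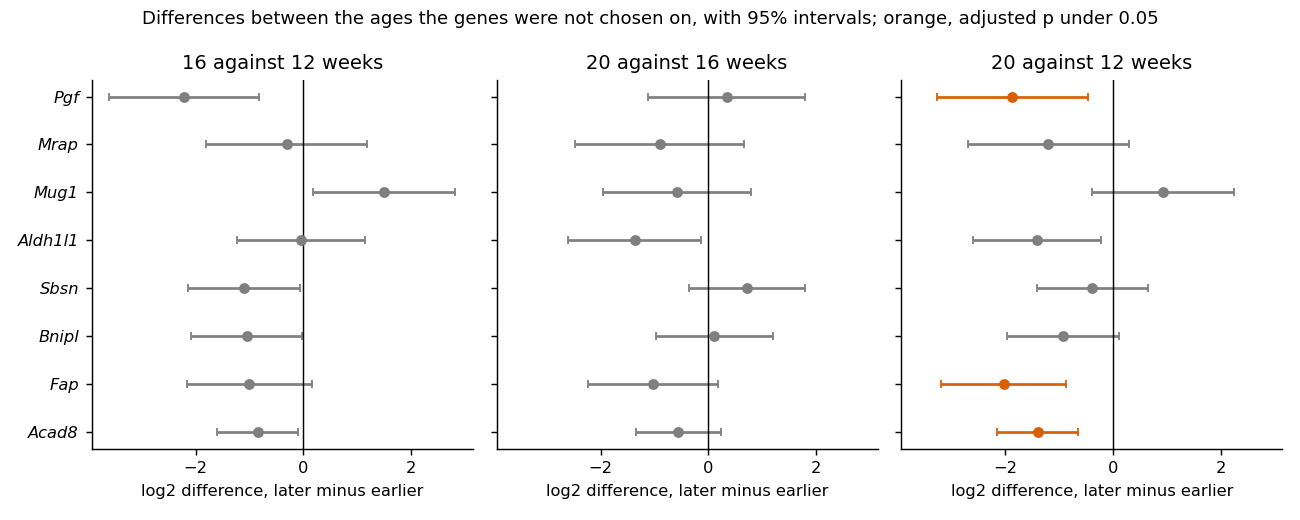
Log2 differences, later minus earlier age (horizontal axis), for the representative probe set of each gene, with 95% intervals of the fit over all 26 arrays. Orange marks an adjusted p under 0.05. Pgf, Fap and Acad8 are orange for 20 against 12 weeks, and Mug1 is the only gene right of 0 for that comparison.

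The 8 genes differed in how closely they tracked one another, as the map of arrays shows. Over 26 arrays the Pearson correlation ran from 0.38 to 0.86 (median 0.71) in the 21 pairs without Mug1, and from -0.19 to 0.41 (median 0.26) in the 7 pairs with it. The step between 4 and 8 weeks, on which the genes were chosen, and the pair of apart arrays are shared by these values. Over the 16 arrays from 12 weeks on, Mrap and Fap had the highest correlation, at 0.92, and Pgf and Sbsn reached 0.84. The pair of apart arrays is among these 16, each the lowest of its age for Mrap, Fap, Pgf and Sbsn. Correlations without the pair are not given.

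**Figure D4:**
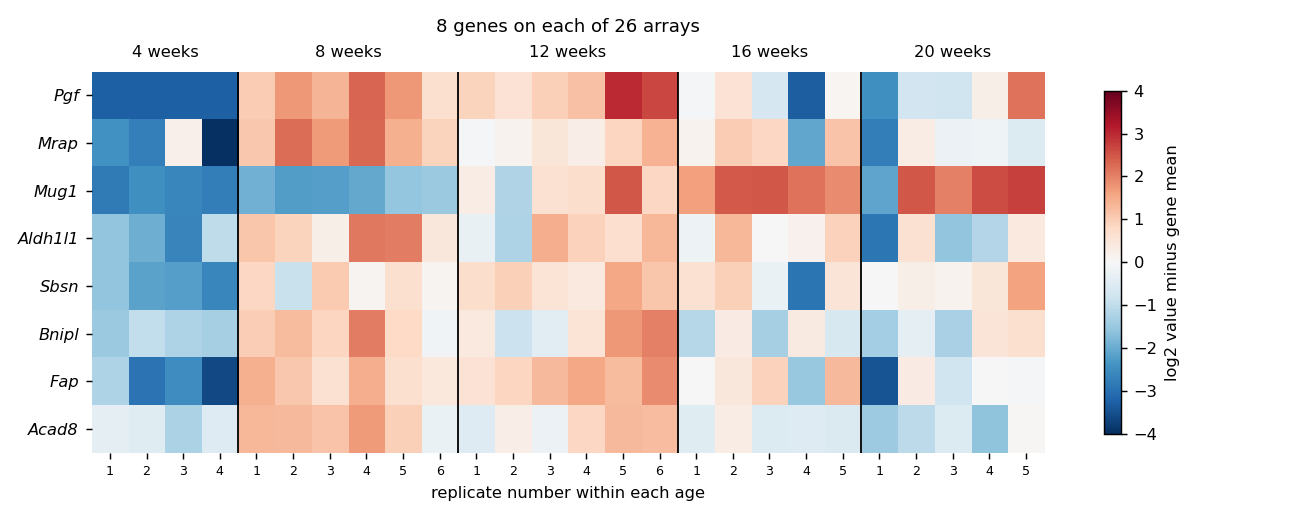
Log2 value minus the mean of its gene over 26 arrays (colour) for each gene (rows) on each array (columns, by age and replicate number). Blue is below and red above the gene's mean. Mug1 is blue on all 8-week arrays, and 20 weeks replicate 1 is the lowest array of its age for 7 of the 8 genes.

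The genes whose values were most like each member over the 26 arrays, by Pearson correlation, are a description. The 4 and 8 week arrays, on which the members were chosen, enter these values, as does the pair of apart arrays. Over the 16 arrays from 12 weeks on, the same pairs ran from 0.70 (Sbsn with H2-Aa) to 0.95 (Acad8 with Rit1). For Pgf they were Pyroxd2 (0.92), Cd74, the invariant chain of MHC class II (0.91), and the sialyltransferase St6galnac2 (0.91). For Sbsn they were H2-Ab1 (0.91), Pyroxd2 (0.87) and H2-Aa (0.86), of which the H2 genes encode class II chains. For Mug1 they were Fam107a (0.90), Rgs2, which limits G protein signals (0.90), and Jchain, which joins IgA and IgM polymers (0.89). For Mrap they were the cytochrome P450 Cyp2j13 (0.92), Twf2 (0.90) and the exonuclease Isg20 (0.87), and for Fap they were Isg20 (0.90), the sterol hydroxylase Cyp27a1 (0.90) and Zwint (0.89). Aldh1l1 had Ufd1 (0.88), Rab25 (0.84) and Hip1r (0.83), Bnipl had Prkra (0.88), Rab26 (0.87) and Capg (0.87), and Acad8 had Rit1 (0.94), Mpdu1 (0.92) and Bloc1s2 (0.92).

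The partners of each gene were examined through lists of related genes, in which the 8 genes themselves were left out. Of the VEGF ligands and receptors, 9 others had a probe set, 6 were tested and none passed at 8 against 4 weeks, where 0.83% of all probe sets were higher and 0.214% lower by limma. The receptors Flt1 and Kdr were near background at every age, at means of 2.77 to 2.99 and 2.14 to 2.40, and the co-receptor Nrp1 was at 7.55 at 8 weeks, against 6.73 at 4 weeks. Of 8 endothelial markers, 7 were near background at 4 weeks and all 8 later, with a mean level of 2.99 to 3.15 by age. Of the melanocortin system, 6 others had a probe set, Mc2r and Mc5r among them. All 6 lay near background at every age, and none was tested.

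Of the relatives of Mug1, A2m, Pzp and Cd109 lay near background at every age, and the receptor Lrp1 had means of 3.70 to 4.82. Neither of the 2 tested, Pzp and Lrp1, passed in any comparison. Of 7 hepatocyte markers, 6, albumin (Alb) among them, were near background at every age, and Ttr had means of 7.37 to 8.37. The 6 adipocyte markers, given here since Mrap is also known from fat, had a mean level of 3.12 ± 0.22 (SD) at 4 weeks, 3.14 ± 0.15 at 8, 3.62 ± 0.71 at 12, 4.04 ± 1.17 at 16 and 3.26 ± 0.20 at 20 weeks, with 5 of 6 near background at 8 weeks.

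Of 13 other cornified layer genes, listed with Sbsn, 11 were near background at 8 weeks, and none of the 6 tested passed at 8 against 4 weeks. The basal keratin Krt5 had means of 6.00 to 7.11 and Krt10 of 4.51 to 4.77, while Flg, Lor and Ivl, which build the cornified layer, were near background. The genes next to Sbsn on its chromosome in the RefSeq order, Dmkn and Krtdap, stayed at means of 2.23 to 2.27 and 2.85 to 3.08. No BCH domain relative of Bnipl passed at 8 against 4 weeks (5 tested). Of the 6 tested prolyl peptidases listed with Fap, none passed at that step. Dpp4, which lies near Fap, had means of 8.79 at 8 weeks and 9.20 at 4 weeks. At 20 against 12 weeks Dpp4 fell by 1.11 ± 0.41 (adjusted p = 0.0494 in limma), while Dpp9 rose by 1.88 ± 0.57 (0.0291) and Dpp7 by 0.41 ± 0.14 (0.0405). Over all probe sets 14.8% fell and 9.33% rose. Without the pair of apart arrays Dpp9 rose by 2.67 ± 0.31 (adjusted p = 5.65e-05 in limma), and Dpp4 (-0.65, 0.0532) and Dpp7 (0.39, 0.0941) did not pass.

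Of 9 fibroblast markers tested beside Fap, 1 passed at 8 against 4 weeks, in the opposite direction to Fap. Col1a1, a chain of collagen I, fell by 0.93 ± 0.22 (adjusted p = 0.0376 in limma). The mean of the 10 fibroblast markers was 6.15 to 6.61 on the arrays at 8 weeks and 5.96 to 7.50 on those at 4 weeks, and 5 of the 6 adipocyte and 6 of the 7 hepatocyte markers were near background at both ages. Macrophage markers were also higher at 8 weeks than at 4 weeks. The 8 genes were chosen on this step, so a shared rise is not read as a link. Of 9 tested, 5 rose, namely C1qa (3.93 ± 0.68), C1qb (2.53 ± 0.47) and C1qc (3.20 ± 0.55) of complement C1q, the myeloid lysozyme Lyz2 (3.59 ± 0.52) and Mpeg1 (1.68 ± 0.32), with adjusted p-values of 0.00072 to 0.00877. The median difference was 2.36 over the 9 and -0.0065 over all probe sets. The mean of the 10 macrophage markers was 6.96 to 7.66 on the 8-week arrays, against 4.89 to 5.60 on the 4-week arrays. Their part in the values of the 8 genes was not tested. Of 11 lacrimal secretory genes tested, 2 rose, lactoferrin (Ltf, 1.84 ± 0.41, adjusted p = 0.0286) and the lysozyme Lyz1 (4.02 ± 0.52, 0.000219). The lipid desaturase Scd1, 1 of 3 lipid gland genes tested, rose by 2.27 ± 0.49 (0.0262).

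None of the 14 tested folate one-carbon enzymes listed with Aldh1l1 passed at 8 against 4 weeks. At 20 against 12 weeks 4 of the 14 fell and 2 rose, where 14.8% of all probe sets fell and 9.33% rose. Those that fell were Shmt2 (-2.54 ± 0.56, adjusted p = 0.0059) and Mthfd2 (-1.69 ± 0.45, 0.0152) of the mitochondrial branch, Fpgs (-0.97 ± 0.16, 0.00141), which keeps folates in the cell, and Atic (-1.56 ± 0.43, 0.0179) of purine synthesis. In the same limma comparison Shmt1, the cytosolic partner of Shmt2, rose by 1.14 ± 0.23 (0.00339), and Tyms, near background, by 0.28 ± 0.096 (0.0435). Without the pair of apart arrays Shmt2 (-2.25, 0.0166), Mthfd2 (-1.07, 0.0208), Fpgs (-0.81, 0.00267) and Shmt1 (1.37, 0.000476) passed, and Atic (-1.27, 0.0551) and Tyms (0.25, 0.106) did not.

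Acad8 belongs to the breakdown of valine, leucine and isoleucine. Of 20 other genes of that pathway tested, none passed at 8 against 4 weeks, with a median difference of 0.29, and 13 fell at 20 against 12 weeks, with a median of -1.40. Over all probe sets 14.8% fell, with a median of -0.038. Echs1 (-2.64 ± 0.55, adjusted p = 0.00436 in limma), a hydratase, and Bckdk (-2.62 ± 0.66, 0.0119), the kinase that restrains the branched-chain dehydrogenase, had the lowest values, and Pccb (-1.36 ± 0.31, 0.00819), of propionyl-CoA carboxylase, and Dld (-1.81 ± 0.44, 0.0101), a subunit shared by several dehydrogenase complexes, also fell. All 20 had negative differences, from -2.64 for Echs1 to -0.044 for Dbt. Of 9 acyl-CoA dehydrogenases tested, 4 fell, Acadvl (-2.21 ± 0.41, 0.00244), Acadm (-1.68 ± 0.37, 0.00561) and Acadl (-1.50 ± 0.42, 0.0198) of fatty acid oxidation and Ivd (-1.07 ± 0.37, 0.0421) of leucine breakdown. Without the pair of apart arrays Acadvl, Acadm and Acadl fell (adjusted p = 0.00543 to 0.0361 in limma), and Ivd did not pass (-0.56, 0.126). Without the pair of apart arrays 10 of the 20 pathway genes fell, 9 of them among the 13, with a median of -1.16 and with Bckdk at -1.61, and with the spread of each array as a covariate none did. The count was 6 without 20 weeks replicate 1, 7 without 12 weeks replicate 4 or 5, and 8 without 20 weeks replicate 4.

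**Figure D5:**
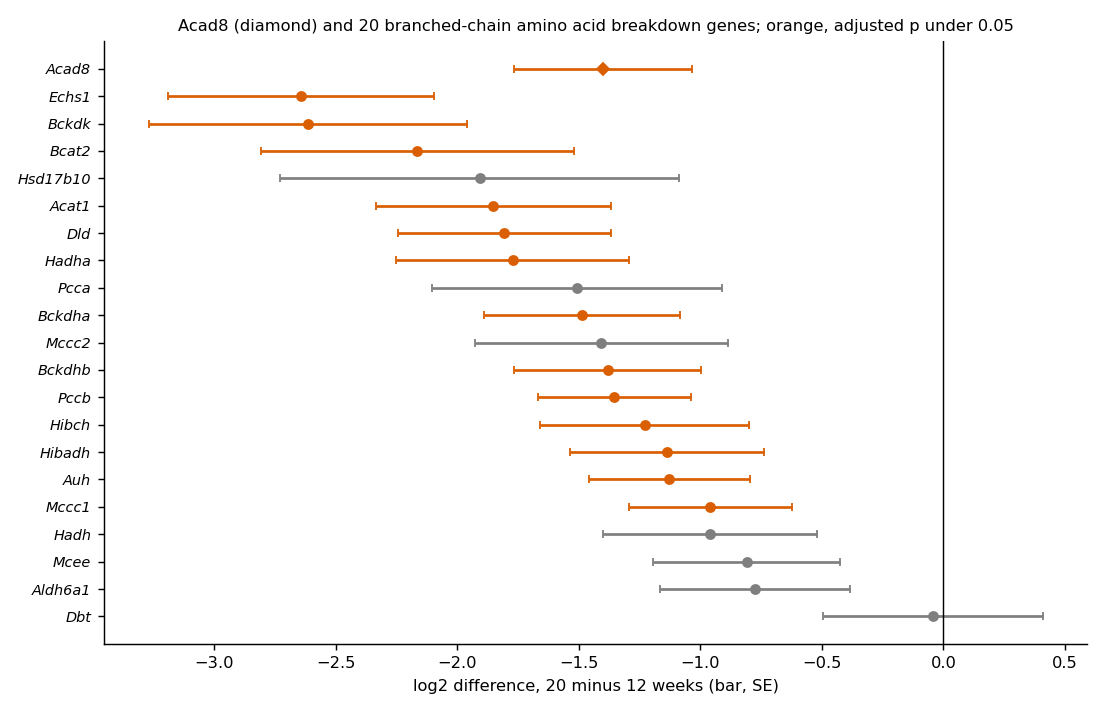
Log2 difference, 20 minus 12 weeks (horizontal axis), with the SE of the fit, for Acad8 (diamond, top) and 20 other genes of valine, leucine and isoleucine breakdown. Orange marks an adjusted p under 0.05, and 13 of the 20 are orange and left of 0.

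Genes lying next to the 8 on their chromosomes, in the RefSeq order, were examined for the step between 4 and 8 weeks. Only Slc41a3, a magnesium transporter beside Aldh1l1, passed, and it fell by 1.07 ± 0.25 (adjusted p = 0.0358 in limma) to a near-background mean of 3.14 at 8 weeks, against 4.21 at 4 weeks. Ifih1, a sensor of viral RNA beside Fap, was 1.70 ± 0.45 higher without passing (0.0666). The glucagon gene Gcg, on the other side of Fap, and A2m, beside Mug1, stayed near background at every age.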

How the data were processed

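Total RNA of whole glands was hybridised as biotinylated cRNA, per the labels' protocols. The authors deposited log2 values for 45101 probe sets on 26 arrays, which were used unchanged. The submitters' processing notes name RMA and GCRMA without saying which was used for these values. Gene names came from the platform's annotation, in which 34958 had 1 symbol, 932 several and 9211 were not listed. Ages were taken from the labels.

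limma 3.58.1 in R 4.3.3 (lmFit, eBayes) fitted a mean per age over all 26 arrays to the 20110 probe sets with 1 symbol that lay above the array median on at least 4 arrays. P-values are two-sided and adjusted by the Benjamini-Hochberg method over all of them, and called at 0.05. The test was tried on simulated data with independent errors and no array-wide effects, so that trial does not cover arrays that stand apart. The members, the 18 gene lists (195 symbols, 121 other genes tested) and the tests were chosen with earlier results of these data known. Differences involving 4 or 8 weeks were not tested for the members. Genes named are the 8 members, up to 4 called genes per list with the smallest p, relatives of a member in its list, and the 3 genes most like each member. Any other gene was chosen after its values were seen. Alternatives covered normalization, filters, probe set choice, array weights, covariates, a replicate block, and leaving out arrays. The number of arrays limits the precision.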

Additional observations from a re-analysis of the deposited data

Results flagged for a closer look

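An array was singled out where its gap to the nearest array of its age was a large share of that age's whole range (Dixon's test). This was met by 9 of 65 combinations of probe set and age, where chance flags about 1 in 20. On 20 weeks replicate 1, Mug1 was at 3.31, where the rest of that age read 7.40 to 8.13, and Mrap was at 5.97, where they read 8.19 to 9.01. This is the array with the narrowest spread of values. Acad8 (1419262_at) was 4.65 on 16 weeks replicate 2, against 3.78 to 3.86. Sbsn (1439630_x_at) was 6.79 on 12 weeks replicate 5, against 5.45 to 5.95.

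The other 5 belong to flat probe sets with narrow ranges. The second Acad8 probe set was 3.53 on 4 weeks replicate 4, against 4.33 to 4.36, and 4.68 on 12 weeks replicate 5, against 4.16 to 4.35. The flat Aldh1l1 probe set was 2.29 on 16 weeks replicate 2, against 2.40 to 2.44. The flat Sbsn probe set was 2.44 on 8 weeks replicate 2, against 2.55 to 2.59, and 2.39 on 12 weeks replicate 4, against 2.56 to 2.61. The causes were not tested.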

How the results depend on the processing

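The differences called for Pgf, Fap and Acad8 kept their direction under every setting tried. Of 24 later differences of the representatives, 3 had another sign without the pair of apart arrays, none of them called: Mug1 at 20 against 16 weeks (0.34, against -0.58 with all arrays), and Mrap (0.27, against -0.30) and Aldh1l1 (0.025, against -0.043) at 16 against 12 weeks. The count of probe sets of the 8 genes past the F test over 12, 16 and 20 weeks was 1, and it was 0 with no filter, with the arrays of those ages only, with the replicate block and with actin or adipocyte markers as a covariate, 3 with a stricter filter and 5 with array weights (0 to 3 without single arrays). At 16 against 12 weeks it was 0, and 1 with the stricter filter, without the pair of apart arrays or given array spread as a covariate. Array weights gave 4 (0 to 2 without single arrays). At 20 against 12 weeks it was 3, and 5 with array weights, 0 with only the arrays compared and 1 with array spread as a covariate (2 to 6 without single arrays, 6 without 20 weeks replicate 5). At 20 against 16 weeks it stayed at 0 throughout, also without single arrays (0 to 0).

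Of the listed genes, 9 passed at 8 against 4 weeks, 17 without the pair of apart arrays and 40 with array weights (6 to 14 without single arrays), and 16 passed the F test, 45 with array weights, 8 with only the arrays compared and 9 once array spread was a covariate (6 to 33 without single arrays). The array weights put 9.95 on 4 weeks replicate 2, against 0.541 on replicate 1. Counts chosen after the data were seen also moved. Macrophage markers higher at 8 weeks were 8 without the apart arrays and 9 with array weights, in place of 5, and the branched-chain genes lower at 20 weeks were 5 after quantile normalization and 3 with only the arrays compared, in place of 13.

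Pgf at 20 against 12 weeks is the least stable call. It held in 6 of 26 refits without 1 array, with differences from -2.50 to -1.34, and in 7 of 14 other settings. It was lost under quantile normalization (-1.42, adjusted p = 0.108) and centred medians (-1.97, 0.0551). Fap held in 25 of 26 and 12 of 14, and Acad8 in 26 of 26 and 12 of 14. Replicate numbers did not pair the arrays: the median correlation of deviations was -0.077 for the same number and 0.023 for different numbers. With the replicate block Pgf lost its call (-1.84, limma adjusted p = 0.0619), and so did Acad8 in the F test (0.0595). Fap at 20 against 12 weeks was the exception without 20 weeks replicate 1 (adjusted p = 0.0581). The causes were not tested.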

Other observations

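Some further genes of the lists gave these values at 20 against 12 weeks in limma. Epidermal growth factor (Egf), a product of salivary glands, fell by 3.66 ± 1.08 (adjusted p = 0.0261), 1 of 6 salivary markers tested. The mean of the salivary markers varied widely within each age, as given above. Periostin (Postn), a matrix protein, fell by 1.27 ± 0.40 (0.0342), 1 of 9 fibroblast markers. Scd1 fell by 1.79 ± 0.46 (0.0138). Without the pair of apart arrays Scd1 fell by 1.15 (0.0175), and Egf (-3.19, 0.0721) and Postn (-0.76, 0.0993) did not pass. None of 5 androgen receptor signalling genes passed at 8 against 4 weeks, with a median difference of 0.26, or in any later comparison. Without the pair of apart arrays Hsd17b11 rose at 8 against 4 weeks (1.06, 0.00373), as did Mtfmt of the folate list (0.96, 0.043) and Arhgap8 of the BCH list (0.89, 0.0161), while Dbt of the branched-chain list fell by 1.51 (0.0357).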
